A study of Mus musculus with 18 samples.

Results

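Lipid droplet and lipolysis genes were followed across soleus, quadriceps and heart of mice with an inducible knockout of EglN1 in skeletal muscle and of mice given the EglN inhibitor FG-4497. The 9 genes are the droplet coat genes Plin2, Plin3, Plin4 and Plin5, the lipase inhibitors Hilpda and G0s2, the lipases Pnpla2 and Lipe, and the lipase co-activator Abhd5. They were taken by gene symbol out of 19938 genes measured on Affymetrix whole-transcript mouse arrays. Each had 1 probe set on the array, so there was no choice to make between probe sets.

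The 18 arrays formed 6 groups of 3. The muscle arrays came from 3 knockout (KO) mice, which carried a floxed EglN1 gene and a tamoxifen-inducible Cre recombinase of skeletal muscle, and from 3 wild-type (WT) mice, which carried the Cre without the floxed gene. Both genotypes received tamoxifen for 3 days before harvest, so the controls shared the Cre and the drug, and soleus and quadriceps were taken from each. The number of mice rests on numbers in the sample labels that were read as animal numbers. The hearts came from other mice, all EglN1 WT, that received FG-4497 intraperitoneally at 50 mg/kg or vehicle, and the labels do not state the time to harvest. The background was C57BL/6 by back-crossing, food was chow without restriction, and neither age nor sex is given. The Cre is restricted to skeletal muscle fibres by design, so other cells of the muscles would keep EglN1, whereas FG-4497 was given to the whole animal. The labels call the arrays of a group biological replicates.

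Muscle and heart store fatty acids as triglyceride in lipid droplets and release them for oxidation. Perilipins coat the droplet surface and set how easily lipases reach the core. The lipase ATGL, encoded by Pnpla2, takes the first fatty acid off a triglyceride, with CGI-58 (Abhd5) as its co-activator, and hormone-sensitive lipase (Lipe) acts on the diglyceride that remains. G0s2 and Hilpda encode small proteins that bind ATGL and inhibit it, and Hilpda is named for its induction by hypoxia. EglN enzymes use oxygen to mark hypoxia-inducible factors (HIF) for destruction, and FG-4497 blocks them.

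In the GRCm38.p6 assembly, Hilpda lies at chr6:29272488-29275449, G0s2 at chr1:193272160-193273188 and Plin2 at chr4:86626910-86670217. Plin3, Plin4 and Plin5 lie close together at chr17:56278962-56290511, chr17:56100587-56109948 and chr17:56111597-56117606. Pnpla2 lies at chr7:141455188-141460743, Lipe at chr7:25379527-25398486 and Abhd5 at chr9:122351616-122381524. Each interval is the whole gene. The deposited table does not say which exons the probes cover.

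The promoters of 4 of the genes are printed because the results turn on them: Hilpda and G0s2 were the 2 genes that passed the test in heart, Plin5 had the widest range over the groups, and Pnpla2 is the lipase that both inhibitors act on. Each is the RefSeq window in GRCm38.p6 from 250 bases before to 50 bases after an annotated start, 5′ to 3′ on the strand of the gene. Capitals mark the core of the HIF binding motif, searched as ACGTG or GCGTG on both strands, so a match on the other strand reads CACGT or CACGC. The windows are chr6:29272376-29272675 (plus strand) for the downstream annotated start of Hilpda and chr1:193273139-193273438 (minus strand) for G0s2. For the upstream start of Plin5 and for Pnpla2 they are chr17:56117499-56117798 (minus strand) and chr7:141454938-141455237 (plus strand).
Hilpda: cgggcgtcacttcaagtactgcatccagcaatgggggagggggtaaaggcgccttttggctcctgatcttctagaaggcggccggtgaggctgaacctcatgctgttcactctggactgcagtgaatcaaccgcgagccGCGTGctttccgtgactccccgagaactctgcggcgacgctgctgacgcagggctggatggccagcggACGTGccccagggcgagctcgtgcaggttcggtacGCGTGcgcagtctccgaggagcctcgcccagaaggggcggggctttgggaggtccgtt
G0s2: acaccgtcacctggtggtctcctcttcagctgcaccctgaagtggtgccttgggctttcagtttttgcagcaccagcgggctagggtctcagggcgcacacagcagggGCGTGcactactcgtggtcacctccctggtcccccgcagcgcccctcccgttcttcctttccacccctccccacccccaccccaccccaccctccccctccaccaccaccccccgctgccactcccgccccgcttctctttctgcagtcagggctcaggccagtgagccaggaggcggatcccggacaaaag
Plin5: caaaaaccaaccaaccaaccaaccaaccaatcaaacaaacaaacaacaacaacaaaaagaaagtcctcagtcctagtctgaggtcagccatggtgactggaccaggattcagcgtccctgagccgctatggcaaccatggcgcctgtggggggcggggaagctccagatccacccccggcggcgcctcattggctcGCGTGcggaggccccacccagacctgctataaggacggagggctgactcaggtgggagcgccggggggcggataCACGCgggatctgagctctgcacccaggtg
Pnpla2: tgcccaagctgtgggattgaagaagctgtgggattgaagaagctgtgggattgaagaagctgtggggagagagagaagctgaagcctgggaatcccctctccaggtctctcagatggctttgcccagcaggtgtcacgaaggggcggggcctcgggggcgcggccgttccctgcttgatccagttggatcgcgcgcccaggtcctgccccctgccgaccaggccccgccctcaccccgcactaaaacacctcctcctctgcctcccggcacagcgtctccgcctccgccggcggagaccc

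With the first transcribed base as 1 and no base 0, the Hilpda window held 3 matches, at -111 to -107, -43 to -39 and -8 to -4. The G0s2 window held 1 match, at -142 to -138. The Plin5 window held matches at -54 to -50 and, on the other strand, at 21 to 25, and the Pnpla2 window held none. Of the windows not printed, Plin2 and the upstream start of Lipe held 3 matches each. In both, 2 of the 3 overlapped and were 1 CACGTG read on both strands, at -4 to 2 in Plin2 and -155 to -150 in Lipe. The windows of Abhd5, the upstream start of Hilpda and the downstream start of Plin5 held 1 match each. All 9 genes were found in the table, with 12 windows in all, of which 8 held a match, and 6 genes had a match in at least 1 window. Of all 32851 mouse windows of this length, 43.8% held a match, as did at least 1 window of 46.7% of 27025 genes, so a single match is common. The genes with no match were Plin3, Plin4 and Pnpla2. These are letter matches in short windows and were not measured as binding sites.

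The deposited values are on the log2 scale, after robust multi-array average (RMA) by the authors. RMA subtracts background, gives the arrays 1 common distribution and summarises all probes of a gene. The median of an array lay between 6.68 and 6.81, and arrays of 1 group correlated with r from 0.986 to 0.995 across all probe sets. Marker sums matched the labelled tissues: the summed level of 10 slow fibre genes was 16.67 to 16.75 in soleus and 11.38 to 13.04 in quadriceps, and that of 10 cardiomyocyte genes was 16.39 to 16.46 in heart and 10.93 to 11.64 in the muscles, on the log2 scale. Single markers were less even. Among the cardiomyocyte genes, Myl4 averaged 7.96 in vehicle heart and 10.07 in WT soleus, and Myl7 was close, at 6.50 and 6.33. The fast fibre gene Myh4 read 10.90, 13.31 and 8.99 in WT soleus and 12.53, 12.48 and 12.73 in KO soleus. The targeted gene Egln1 read 11.29, 11.22 and 11.31 in WT soleus and 11.03, 11.07 and 11.12 in KO soleus. It read 10.94, 10.99 and 10.95 in WT quadriceps and 10.87, 10.67 and 10.92 in KO quadriceps. The groups did not overlap in either muscle, but the differences of -0.20 (SE 0.07) and -0.14 (SE 0.07) did not pass (limma, adjusted p = 0.438 and 0.47). Whether the probes lie in the deleted part is not given, and RNA of cells outside the fibres is part of each value.

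Both lipase inhibitors rose in heart with FG-4497, Hilpda 2.87-fold and G0s2 1.78-fold, and the other 7 genes did not pass the test there. In KO against WT mice, G0s2 was the 1 gene of the 9 that passed in soleus, 1.39-fold higher, and in the mean of both muscles, 1.3-fold higher, and no gene passed in quadriceps. The 95% interval of the Hilpda difference lay between -0.26 and 0.26 log2 units in both muscles. A call means a p under 0.05 in limma's moderated test after Benjamini-Hochberg adjustment over all genes tested, and all 9 passed the filter on low values. Hilpda lay close to that filter in muscle. In heart, 2 of the 9 genes were called higher and 0 lower, where 1.77% of 13431 genes were called in either direction and 1.3% were called higher. There 7 of the 9 had an unadjusted p under 0.05, as did 10.6% of all genes. In soleus it was 1 of 9, G0s2, where 0.18% of 13318 genes were called and 0.12% were called higher, and it was also the 1 gene with an unadjusted p under 0.05, as had 7.23% of all genes. In quadriceps it was 0 of 9, where 0.683% of genes were called, and 4 of 9 had an unadjusted p under 0.05, as did 11.6% of genes. In the mean of both muscles it was 1 of 9, where 0.833% were called, and 4 of 9 had an unadjusted p under 0.05, as did 11.4% of genes.

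**Figure D1:**
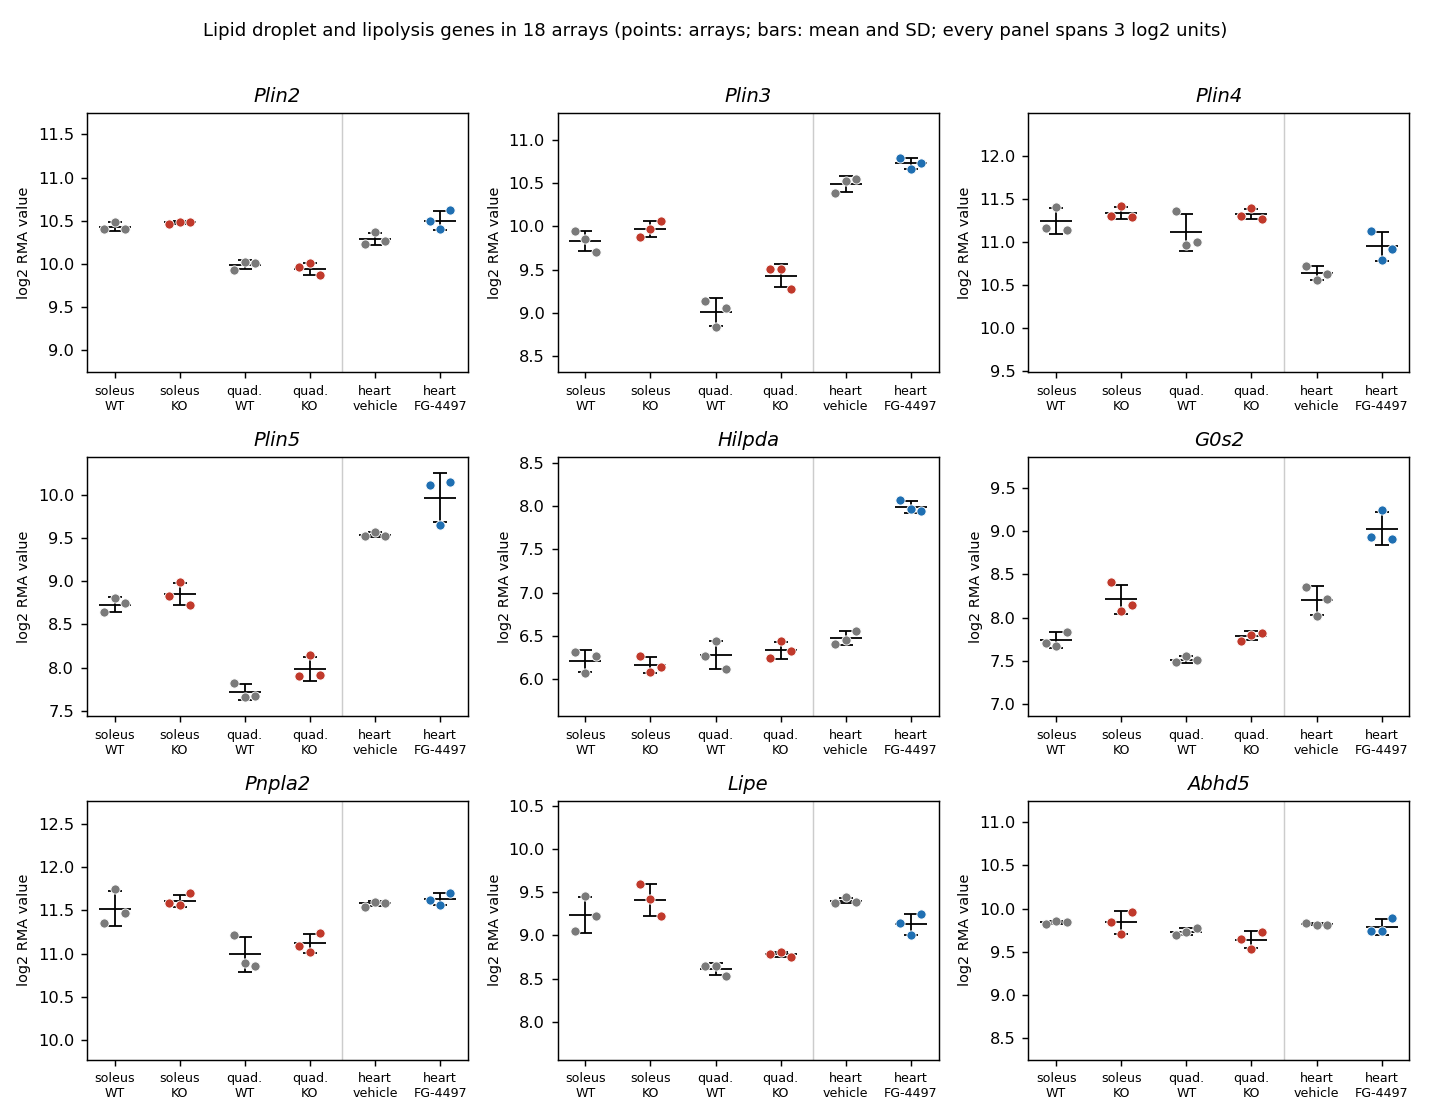
Log2 RMA values of the 9 genes (vertical axis, every panel spanning the same log2 range) in the 6 groups (horizontal axis). Points are single arrays in the order of replicates 1, 2 and 3, and bars are the mean and SD of 3 arrays. The FG-4497 hearts stand apart from all other groups for Hilpda, with a mean of 7.99, and the quadriceps arrays lie lowest for Plin2, Plin3, Plin5, Pnpla2 and Lipe.

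Hilpda had the clearest response. It read 6.40, 6.45 and 6.56 in the vehicle hearts and 8.07, 7.97 and 7.94 in the FG-4497 hearts. The lowest treated heart lay more than a log2 unit above the highest control. The means were 6.47 ± 0.08 (SD, n = 3) and 7.99 ± 0.07 (SD, n = 3), a difference of 1.52 (SE 0.08, 95% interval 1.34 to 1.71). It passed in limma with an adjusted p of 8.78e-06, and it kept passing in all 14 alternatives that tested it, between 1.48 and 1.57.

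The muscles showed no such step for Hilpda. It read 6.31, 6.07 and 6.26 in WT soleus and 6.26, 6.08 and 6.14 in KO soleus. In quadriceps it read 6.27, 6.44 and 6.12 in WT and 6.24, 6.44 and 6.32 in KO. Genotypes overlapped in both muscles, and the highest muscle array only reached the level of the vehicle hearts. The KO minus WT difference was -0.05 (95% interval -0.26 to 0.15) in soleus, 0.05 (95% interval -0.15 to 0.26) in quadriceps and 0.00 (95% interval -0.16 to 0.16) in the mean of both. Of the 12 muscle arrays, 4 were below 6.194, the level of the filter on low values, so the probe set was near the dim end of the array in muscle. Its soleus means were 6.21 in WT and 6.16 in KO, about that level, and its quadriceps means were 6.28 and 6.33. A change of Hilpda in muscle could be understated at this level.

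G0s2 was the gene that passed in both experiments. It read 8.35, 8.02 and 8.22 in the vehicle hearts and 8.93, 9.25 and 8.91 in the FG-4497 hearts. The groups did not overlap, and vehicle and treated means were 8.20 ± 0.17 and 9.03 ± 0.19 (SD, n = 3 each). The difference was 0.83 (SE 0.12, 95% interval 0.57 to 1.09; limma, adjusted p = 0.00458). All 15 alternatives kept it past the threshold, from 0.62 to 0.91, with an adjusted p of at most 0.0297.

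In soleus, G0s2 read 7.71, 7.67 and 7.83 in WT and 8.41, 8.08 and 8.14 in KO. Every KO array was above every WT array, and KO replicate 1 was the highest. The difference was 0.47 (SE 0.08, 95% interval 0.30 to 0.65; limma, adjusted p = 0.0423). This call sits at the edge: it held in 8 of 17 alternatives, with changes from 0.37 to 0.54 and adjusted p from 0.0288 to 0.335. It was lost without soleus KO replicate 1 (0.37, adjusted p = 0.103), WT replicate 1 (0.46, adjusted p = 0.216) or WT replicate 2 (0.44, adjusted p = 0.139).

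In quadriceps, G0s2 read 7.48, 7.55 and 7.51 in WT and 7.73, 7.80 and 7.82 in KO. The genotypes did not overlap here either, with a difference of 0.27 (SE 0.08) that did not pass (limma, adjusted p = 0.195). Over both muscles the mean difference was 0.37 (SE 0.06; limma, adjusted p = 0.0136), and it passed in all 21 alternatives, from 0.32 to 0.41. The knockout difference was not shown to differ between the muscles: soleus minus quadriceps was 0.20 (95% interval -0.03 to 0.43; limma, adjusted p = 0.824). In whole tissue, a change in the share of a cell type and a change of RNA per cell cannot be told apart, and this holds for each gene here.

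**Figure D2:**
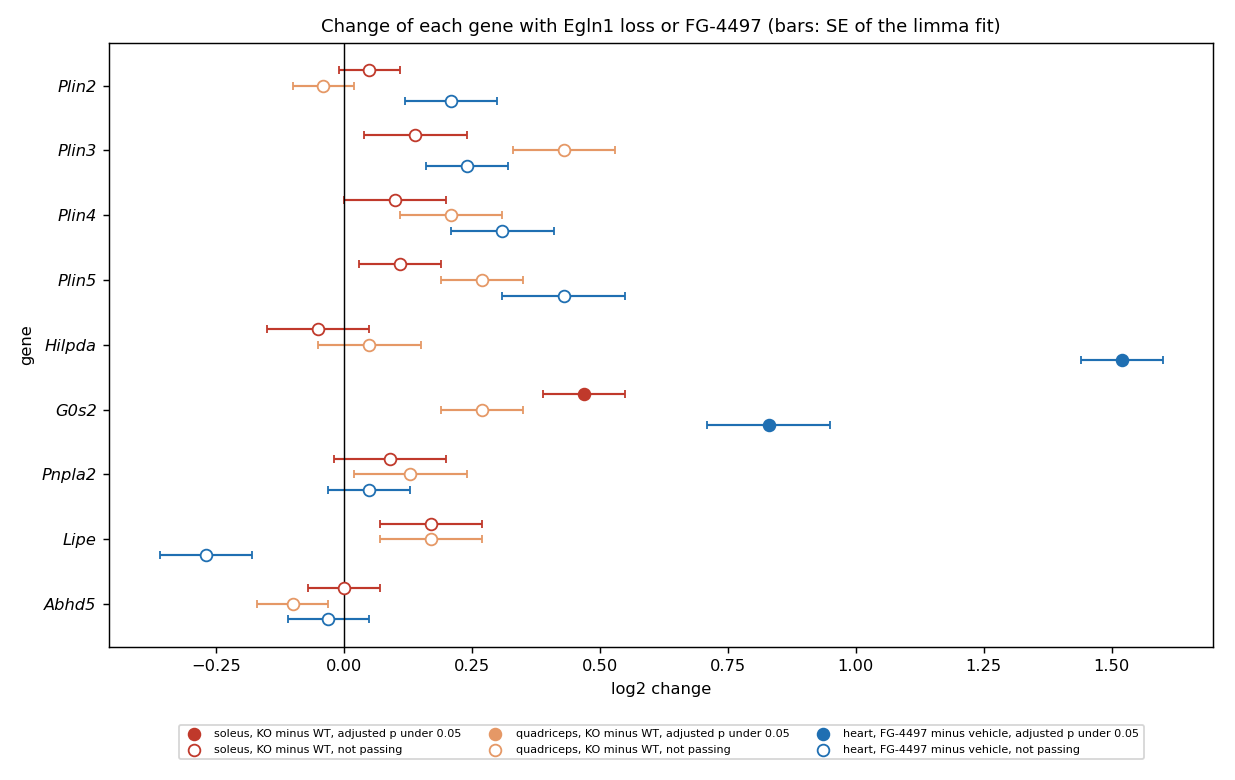
Log2 change (horizontal axis) of each of the 9 genes (vertical axis) for KO minus WT in soleus and quadriceps and for FG-4497 minus vehicle in heart, with the SE of the limma fit as bars. Filled points passed an adjusted p of 0.05: Hilpda at 1.52 and G0s2 at 0.83 in heart, and G0s2 at 0.47 in soleus.

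The coat genes lay mostly above their controls, and none of them passed in heart or in either muscle. Plin5, the perilipin of oxidative tissues that ties droplets to mitochondria, read 9.52, 9.57 and 9.53 in the vehicle hearts and 10.11, 9.65 and 10.15 in the FG-4497 hearts. All treated hearts were above all controls, but replicate 2 lay just over them and apart from the other 2. The difference of 0.43 (SE 0.12, 1.35-fold) did not pass (limma, adjusted p = 0.149). Without that heart it was 0.59 and passed (limma, adjusted p = 0.014), and it passed in 2 of the other 14 alternatives, over which the adjusted p ranged from 0.0226 to 0.386.

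In quadriceps, Plin5 read 7.82, 7.66 and 7.67 in WT and 7.90, 8.15 and 7.91 in KO. The genotypes did not overlap, with a difference of 0.27 (SE 0.08) that did not pass (limma, adjusted p = 0.218). In soleus it read 8.64, 8.81 and 8.75 in WT and 8.83, 8.99 and 8.73 in KO, groups that overlap, with a difference of 0.11 (SE 0.08).

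Plin3, a perilipin that moves from the cytosol onto nascent droplets, gave the largest difference of the 9 genes in quadriceps. It read 9.14, 8.83 and 9.05 in WT and 9.51, 9.51 and 9.28 in KO. The KO arrays were all above the WT arrays, and the difference was 0.43 (SE 0.10, 1.34-fold). It just missed the threshold (limma, adjusted p = 0.0686), and it passed in 3 of 17 alternatives, including the one without KO replicate 3 (0.51, adjusted p = 0.0403). The summed slow fibre markers read 12.29, 11.67 and 11.38 in WT and 11.58, 13.04 and 12.12 in KO quadriceps, overlapping between genotypes. With the mean log2 value of these markers as a covariate, the Plin3 difference was 0.41.

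In soleus, Plin3 read 9.95, 9.85 and 9.70 in WT and 9.88, 9.97 and 10.06 in KO. These overlap, with a difference of 0.14 (SE 0.10). Of the 9 genes, Plin3 was the one whose knockout difference had an unadjusted p under 0.05 between the muscles, -0.29 for soleus minus quadriceps (95% interval -0.55 to -0.02), with an adjusted p of 0.766 in limma. No gene on the array passed that test of the difference (0% called), and 854 genes, 6.41%, had an unadjusted p under 0.05. In heart, Plin3 read 10.39, 10.52 and 10.55 with vehicle and 10.79, 10.67 and 10.73 with FG-4497. Those groups did not overlap, and the difference of 0.24 (SE 0.08) did not pass (limma, adjusted p = 0.248).

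Plin4, a perilipin abundant in muscle and fat, read 10.72, 10.56 and 10.63 in the vehicle hearts and 11.13, 10.79 and 10.92 in the FG-4497 hearts, without overlap. The difference of 0.31 did not pass (limma, adjusted p = 0.212), and passed in 1 alternative, a trended robust prior (adjusted p = 0.0457). In quadriceps it read 11.36, 10.97 and 11 in WT and 11.30, 11.39 and 11.27 in KO. There WT replicate 1 lay with the KO arrays, and the difference of 0.21 did not pass (limma, adjusted p = 0.427). In soleus the 6 arrays lay between 11.14 and 11.42 with overlapping genotypes.

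Plin2, the coat protein found on droplets of nearly all cells, read 10.23, 10.37 and 10.27 in the vehicle hearts and 10.50, 10.40 and 10.62 in the FG-4497 hearts. The groups were close and did not overlap, and the difference of 0.21 did not pass (limma, adjusted p = 0.386). Its knockout difference was 0.05 (95% interval -0.08 to 0.17) in soleus and -0.04 (95% interval -0.17 to 0.08) in quadriceps, with overlapping genotypes in both.

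The lipases and the co-activator did not pass in any of these comparisons. Pnpla2 read 11.54, 11.60 and 11.59 in the vehicle hearts and 11.62, 11.56 and 11.70 in the FG-4497 hearts. The groups overlapped, with a difference of 0.05 (limma, adjusted p = 0.924), in the same hearts in which its inhibitors Hilpda and G0s2 rose. In muscle its knockout difference was 0.09 (95% interval -0.14 to 0.32) in soleus and 0.13 (95% interval -0.10 to 0.36) in quadriceps.

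Lipe was the 1 gene of the 9 whose FG-4497 hearts all lay below the vehicle hearts. It read 9.38, 9.44 and 9.39 in the vehicle hearts and 9.14, 9.0 and 9.25 in the treated hearts. The groups did not overlap, and the difference of -0.27 (SE 0.09) did not pass (limma, adjusted p = 0.206) in any of 15 alternatives. In quadriceps it lay the other way, at 8.64, 8.65 and 8.53 in WT and 8.79, 8.81 and 8.75 in KO, again without overlap and without passing (0.17, SE 0.10; limma, adjusted p = 0.567). In soleus it read 9.05, 9.46 and 9.22 in WT and 9.59, 9.42 and 9.23 in KO, groups that overlap, with a difference of 0.17 (SE 0.10).

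Lipe is also an adipocyte gene, and the adipocyte markers moved with some of these arrays. The summed level of 8 measured markers read 12.16, 12.71 and 12.23 in WT soleus and 12.68, 12.58 and 12.26 in KO soleus. WT replicate 2, the highest of the WT arrays, was also the highest WT soleus array for Lipe, Pnpla2, Plin2, Plin4, Plin5 and Abhd5. It was not the highest for Plin3, Hilpda or G0s2. That array was the highest WT soleus array for the fast fibre gene Myh4 as well, at 13.31. In quadriceps the sum read 11.67, 12.04 and 11.66 in WT and 12.10, 12.04 and 11.93 in KO. With FG-4497 it was 12.50 to 12.67 against 12.56 to 12.60 with vehicle. Fabp4, the brightest of the 8, weighs most in the sum, and averaged 11.61 in WT soleus, 10.83 in WT quadriceps and 12.13 in vehicle heart. None of the 8 markers passed in soleus or quadriceps and none of the 7 tested in heart (limma, with 0, 1 and 0 at an unadjusted p under 0.05). The defining marker Adipoq read 7.34 to 9.24 in the muscles and 5.94 to 6.57 in the hearts. With the mean log2 value of the adipocyte markers as a covariate, the Lipe difference was 0.08 in soleus, 0.10 in quadriceps and -0.17 in heart. Their part in the Lipe values was not tested further. G0s2 in soleus was 0.47 with the same covariate, though no longer past the threshold (adjusted p = 0.0973).

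Abhd5 had the narrowest range of the 9 genes over the 6 groups, 0.21 between the highest and the lowest group mean. It read 9.83, 9.81 and 9.81 in the vehicle hearts and 9.74, 9.74 and 9.89 in the FG-4497 hearts, which overlap. Its difference was -0.03 in heart (limma, adjusted p = 0.965) and -0.10 in quadriceps (limma, adjusted p = 0.665). In soleus the 95% interval ran from -0.15 to 0.15.

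By direction alone, 7 of the 9 genes lay above their controls in heart, 7 in soleus and 7 in quadriceps. The median difference of the 9 genes was 0.24 in heart, 0.10 in soleus and 0.17 in quadriceps, beside -0.002, 0.001 and -0.016 over all genes tested. Groups without overlap, treated or KO arrays all higher, were seen for 6 of the 9 genes in heart, where 8.38% of all genes had them. In quadriceps there were 4 of 9, where 5.66% of all genes had them, and in soleus 1 of 9, where 6.4% had them. In heart 1 gene, Lipe, had its treated arrays all lower, as did 7.09% of all genes.

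Whether the drug in heart and the knockout in muscle differed in their effect was tested directly, as the FG-4497 effect minus the mean knockout effect in a fit of all 18 arrays, a contrast added after the values were seen. Hilpda passed, at 1.52 (SE 0.11; limma, adjusted p = 3.34e-07), as 1 of the 9 genes against 2.67% of all genes called. Its measured response was thus larger in heart than in muscle, where its dim signal limits the comparison. G0s2 did not pass, at 0.46 (SE 0.13, 95% interval 0.19 to 0.73; limma, adjusted p = 0.0714), and passed in 2 of 24 alternatives. Lipe did not pass either, at -0.44 (SE 0.12; limma, adjusted p = 0.0629), and passed in 5 of 24 alternatives. For Plin3 the effects were close, with a difference of -0.04 (95% interval -0.28 to 0.20). Drug, tissue and experiment change together in this contrast and cannot be told apart. The Egln1 differences in KO muscle, -0.20 in soleus and -0.14 in quadriceps, did not pass, so these arrays do not show how far EglN1 was lost there.

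Levels also differed between the tissues. The 6 groups were ordered by mean for each gene, and neighbours in that order are called separate where their arrays do not overlap. Plin5 had the widest range, from 7.72 ± 0.09 in WT quadriceps through 7.98 ± 0.14 in KO quadriceps, 8.73 ± 0.09 in WT soleus, 8.85 ± 0.13 in KO soleus and 9.54 ± 0.03 in vehicle heart to 9.97 ± 0.28 in FG-4497 heart (SD, n = 3). All neighbours in this order were separate except the 2 soleus groups. Plin3 had the same order, from 9.01 ± 0.16 in WT quadriceps to 10.73 ± 0.06 in FG-4497 heart, and there too all neighbours but the soleus groups were separate.

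Plin4 ran the other way, with both hearts at the bottom. Its means fell from 11.34 ± 0.07 in KO soleus over 11.32 ± 0.06 in KO quadriceps, 11.24 ± 0.15 in WT soleus and 11.11 ± 0.21 in WT quadriceps to 10.95 ± 0.17 in FG-4497 heart and 10.64 ± 0.08 in vehicle heart. Only the last pair was separate. Plin2 read 10.50 ± 0.11 in FG-4497 heart, 10.48 ± 0.02 in KO soleus, 10.43 ± 0.05 in WT soleus, 10.29 ± 0.07 in vehicle heart, 9.99 ± 0.05 in WT quadriceps and 9.94 ± 0.07 in KO quadriceps. Vehicle heart was separate from the group on either side of it, and the other neighbours overlapped.

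Among the inhibitors, G0s2 ran from 9.03 ± 0.19 in FG-4497 heart over 8.21 ± 0.17 in KO soleus, 8.20 ± 0.17 in vehicle heart, 7.79 ± 0.05 in KO quadriceps and 7.74 ± 0.09 in WT soleus to 7.51 ± 0.04 in WT quadriceps. KO soleus thus reached the level of the vehicle heart, and KO quadriceps that of WT soleus, pairs that overlap, while the other neighbours were separate. For Hilpda only the FG-4497 heart was separate, and the means of the other groups ran from 6.47 ± 0.08 in vehicle heart to 6.16 ± 0.09 in KO soleus.

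Pnpla2 read 11.63 ± 0.07 in FG-4497 heart, 11.61 ± 0.07 in KO soleus, 11.58 ± 0.03 in vehicle heart, 11.52 ± 0.20 in WT soleus, 11.12 ± 0.11 in KO quadriceps and 10.99 ± 0.20 in WT quadriceps. The single separate pair was WT soleus and KO quadriceps, so the gene formed a high set of 4 groups and a low set of 2. Lipe read 9.41 ± 0.18 in KO soleus, 9.40 ± 0.03 in vehicle heart, 9.24 ± 0.21 in WT soleus, 9.13 ± 0.12 in FG-4497 heart, 8.78 ± 0.03 in KO quadriceps and 8.61 ± 0.07 in WT quadriceps. Its separate neighbours were FG-4497 heart and KO quadriceps, and the 2 quadriceps groups. No neighbours were separate for Abhd5, from 9.84 ± 0.02 in WT soleus to 9.64 ± 0.10 in KO quadriceps.

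**Figure D3:**
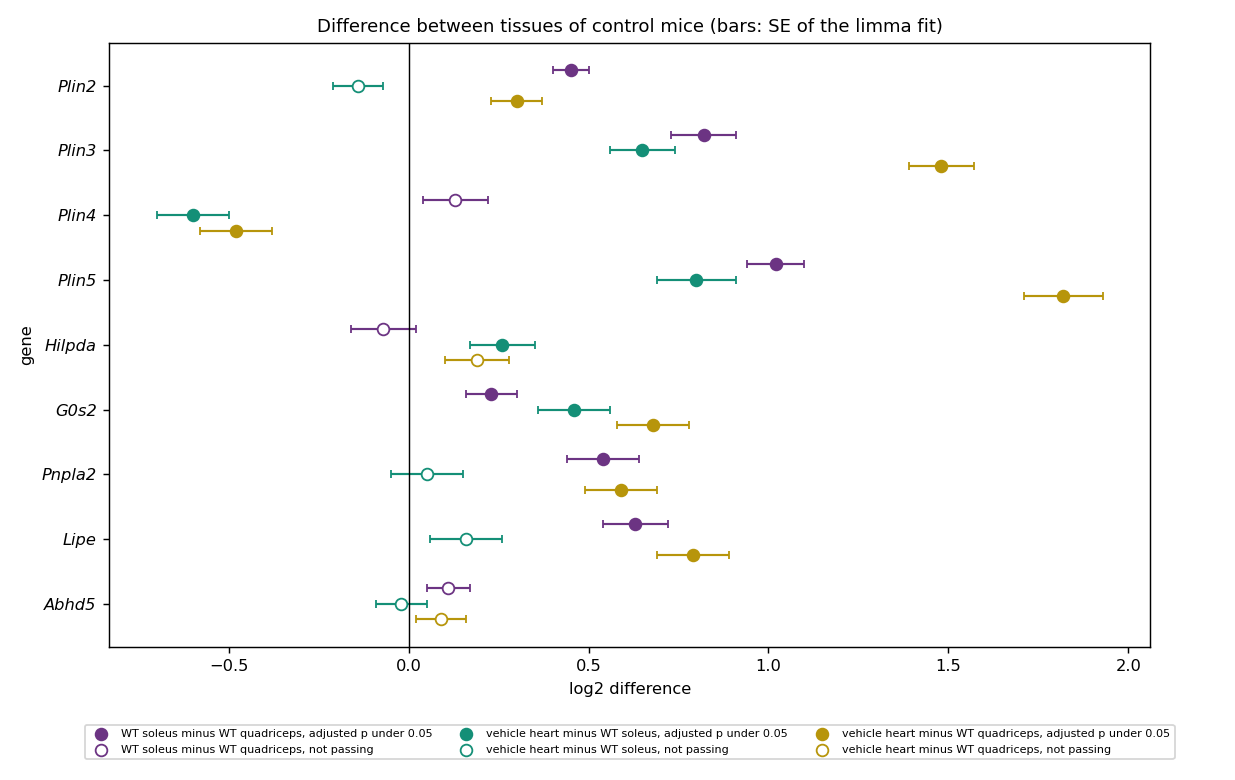
Log2 difference (horizontal axis) of each of the 9 genes (vertical axis) between tissues of control mice, for WT soleus minus WT quadriceps, vehicle heart minus WT soleus and vehicle heart minus WT quadriceps, with the SE of the limma fit as bars and filled points where the adjusted p was under 0.05. Plin5 reaches 1.82 between heart and quadriceps, and Plin4 lies at -0.60 and -0.48 in the comparisons with heart.

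In WT mice, soleus, a slow oxidative muscle, was higher than quadriceps for 6 of the 9 genes and lower for 0, where 45.7% of all genes were called and 21.3% were called higher. Plin5 was 2.02-fold higher (1.02, SE 0.08; limma, adjusted p = 2.31e-07) and Plin3 was 1.77-fold higher (0.82; limma, adjusted p = 5.21e-06). Both lipases were higher as well, Lipe 1.55-fold (0.63; limma, adjusted p = 9.04e-05) and Pnpla2 1.45-fold (0.54; limma, adjusted p = 0.000507). Plin2 was 1.36-fold higher (0.45; limma, adjusted p = 1.4e-05).

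G0s2 was higher by less, 1.17-fold (0.23; limma, adjusted p = 0.0253), a call lost without soleus WT replicate 1 or 3 or quadriceps WT replicate 1 or 3, with adjusted p up to 0.114. Plin4 did not pass, at 0.13 (limma, adjusted p = 0.27), and passed without quadriceps WT replicate 1 at 0.23 (limma, adjusted p = 0.0305). Abhd5 (0.11; limma, adjusted p = 0.185) and Hilpda (-0.07; limma, adjusted p = 0.568) did not pass. The adipocyte marker sum of the same arrays was 12.16 to 12.71 in WT soleus and 11.66 to 12.04 in WT quadriceps, and its part in these differences was not tested.

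Vehicle heart against WT soleus gave 4 genes higher and 1 lower, where 56.8% of all genes were called, 29.6% higher and 27.2% lower. Plin5 was 0.80 higher (limma, adjusted p = 4.69e-06), Plin3 was 0.65 higher (limma, adjusted p = 6.34e-06) and G0s2 was 0.46 higher (limma, adjusted p = 0.000932). Hilpda was 0.26 higher (limma, adjusted p = 0.023), a call lost without soleus WT replicate 2 or vehicle heart replicate 3 and with quantile normalization repeated. Plin4 was lower by -0.60 (limma, adjusted p = 4.95e-05). Plin2 (-0.14, adjusted p = 0.0745), Lipe (0.16, adjusted p = 0.173), Pnpla2 (0.05, adjusted p = 0.652) and Abhd5 (-0.02, adjusted p = 0.791) did not pass in limma. Plin2 passed without vehicle heart replicate 2 and Lipe without soleus WT replicate 2.

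Vehicle heart against WT quadriceps gave 6 genes higher and 1 lower, where 63.1% of all genes were called, 31.9% higher and 31.2% lower. The differences were 3.53-fold for Plin5 (1.82; limma, adjusted p = 6.16e-11), 2.78-fold for Plin3 (1.48) and 1.73-fold for Lipe (0.79). G0s2 (0.68), Pnpla2 (0.59) and Plin2 (0.30) were higher too, with adjusted p in limma of at most 0.00064, and Plin4 was lower (-0.48; limma, adjusted p = 0.000412). Hilpda (0.19, adjusted p = 0.0809) and Abhd5 (0.09, adjusted p = 0.29) did not pass in limma. The hearts belong to another experiment without tamoxifen, so tissue and experiment cannot be told apart in both comparisons with heart. The 3 tissue comparisons share control arrays.

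Few other genes of lipid storage passed the test with either intervention. Of 14 tested genes of droplet coat and growth, 0 passed in soleus, quadriceps or heart in limma and 0 had an unadjusted p under 0.05 in any of them, with medians of 0.02, -0.02 and 0.03. The largest difference in each was that of Cidec, a droplet fusion protein that is also an adipocyte marker, at 0.45 (SE 0.28), 0.47 (SE 0.28) and 0.21 (SE 0.16). None of these Cidec values passed (limma, adjusted p of 0.837, 0.572 and 0.79), and they ranged over the alternatives from 0.11 to 0.84, 0.17 to 0.67 and 0.10 to 0.51. The soleus value was 0.84 without WT replicate 2, the array with the highest WT adipocyte sum, and 0.11 with the adipocyte covariate. Cidec is itself among the markers averaged in that covariate, which also gave the 0.17 in quadriceps and the 0.51 in heart. Adjusting a gene for a mean that includes it can change its difference by construction, so the part of adipocytes in it was not tested.

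Of the triglyceride synthesis genes, 12 were tested in muscle and 11 in heart. Dgat2, which adds the last fatty acid, rose in KO quadriceps (0.58, SE 0.12; limma, adjusted p = 0.0462), a call that held in 7 of 17 alternatives with adjusted p from 0.0201 to 0.276 and was lost without WT replicate 2 or any 1 KO array. Lpin3, a phosphatidate phosphatase, rose in heart with FG-4497 (0.41, SE 0.09; limma, adjusted p = 0.0466), and that call held in 3 of 14 alternatives, lost on leaving out any 1 heart. None passed in soleus, where 2 had an unadjusted p under 0.05 in limma, as did 7.23% of all genes. The medians were -0.03 in soleus, 0.01 in quadriceps and 0.03 in heart.

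Of 14 other lipases and their regulators, 0 passed in soleus, quadriceps or heart in limma, where 0, 4 and 2 had an unadjusted p under 0.05, as did 7.23%, 11.6% and 10.6% of all genes. The largest differences were those of Ces1d in soleus (0.26, SE 0.26), Pnpla3 in quadriceps (-0.28, SE 0.10) and Abhd6 in heart (0.20, SE 0.08). Ces1d in soleus depended on single WT arrays, of which replicate 2 read 8.26 beside 7.18 and 7.04. Without replicate 2 the difference was 0.62 (limma, adjusted p = 0.285), and without WT replicate 1 or 3 it was 0.10 or 0.06. Over all alternatives it ranged from 0.04 to 0.62. Of 15 PPAR factors and targets, the fatty acid transporter Cd36 rose in KO quadriceps (0.30, SE 0.06; limma, adjusted p = 0.0408), which held in 6 of 17 alternatives and was lost on leaving out any 1 quadriceps array. In quadriceps 4 of the 15 had an unadjusted p under 0.05, beside the 11.6% of all genes. No gene of that list passed in soleus or heart, where 1 and 3 had an unadjusted p under 0.05 in limma and the largest differences were those of Acot1 (0.28) and of the lipoprotein lipase inhibitor Angptl4 (0.59, SE 0.20; limma, adjusted p = 0.265). Angptl4 read 7.39, 8.14 and 8.27 in the FG-4497 hearts, and without replicate 1, the lowest, the difference was 0.86 and passed (limma, adjusted p = 0.0155).

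Of the hypoxia-inducible list, 11 of 14 tested genes rose with FG-4497 in heart and 0 fell, where 1.3% of all genes were called higher, with a median of 1.01. In the added contrast of the drug effect against the knockout effect, 12 of the 14 passed, all higher in heart, where 2.67% of all genes were called. The vascular peptide Adm rose by 3.25 (SE 0.08; limma, adjusted p = 1.77e-08), the glucose transporter Slc2a1 by 1.39 and Ankrd37 by 1.37, and the glycolytic regulator Pfkfb3 rose 2.82-fold. Hilpda rose 2.87-fold in the same hearts. In KO muscle, 0 of 14 passed in soleus, with 1 at an unadjusted p under 0.05 in limma, and 1 passed in quadriceps, Stc2 (0.78; limma, adjusted p = 0.0218), with medians of 0.02 and 0.05. In soleus 7.23% of all genes had an unadjusted p under 0.05. In quadriceps 4 of 14 had one, as did 11.6% of all genes. Among them, and named after its values were seen, Pfkfb3 read 11.47, 11.93 and 11.29 in WT and 10.35, 10.40 and 10.51 in KO quadriceps, groups that do not overlap, with a difference of -1.14 (SE 0.30) that did not pass (limma, adjusted p = 0.132). The Stc2 call held in 12 of 17 alternatives and was lost without any 1 of the WT quadriceps arrays.

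**Figure D4:**
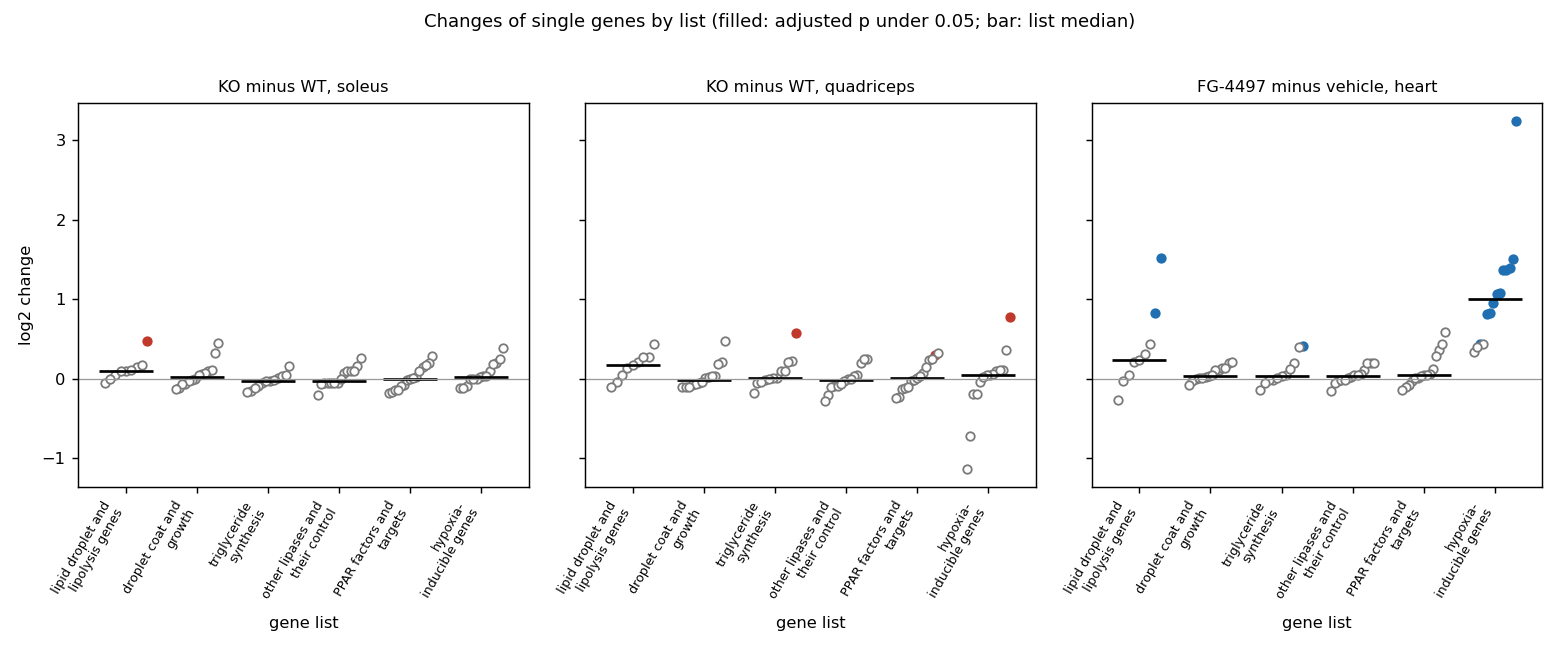
Log2 change of single genes (vertical axis) in 6 gene lists (horizontal axis) for KO minus WT in soleus and quadriceps and FG-4497 minus vehicle in heart. Each point is a gene, filled where its adjusted p in limma was under 0.05, and the bar is the list median, 1.01 for the hypoxia-inducible genes in heart and between -0.03 and 0.05 for the other 4 lists around the 9 genes.

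Between WT muscles the same lists differed more, where 45.7% of all genes were called. Triglyceride synthesis genes were higher in soleus for 6 and lower for 2 of 12, led by Dgat2, which was 5.81-fold higher (2.54; limma, adjusted p = 1.41e-09). PPAR factors and targets were higher for 10 and lower for 3 of 15, with a median of 0.65. Ppara was 1.83 higher and Cd36 was 1.52 higher. Other lipases and regulators split 5 higher and 6 lower of 14, from Ces1d at -2.35 to the monoglyceride lipase Mgll at 1.43. Droplet coat and growth genes split 4 and 4 of 14, with Cidea at 1.21 and Aup1 at -0.58.

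Profiles over the 18 arrays were compared with those of 12840 genes by Pearson correlation, as a description, since arrays share tissue, experiment and animals. The profile most like that of Plin3 among all of these genes was that of Plin5 (r = 0.975), also on chromosome 17. Plin5 itself was most like Cox8a (r = 0.985) and Slc25a34 (r = 0.984). Hilpda was most like Adm (r = 0.976) and Apold1 (r = 0.971), and G0s2 was most like Plk2 (r = 0.958) and Map3k1 (r = 0.951). Pnpla2 was most like Acot2 (r = 0.962) and Gabarapl1 (r = 0.941), and Lipe was most like Gnai1 (r = 0.946) and C1qtnf9 (r = 0.934).

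Plin2 was most like Qsox1 and Wbp1 (r = 0.947 each), Plin4 was most like Ciart (r = 0.943) and Gucd1 (r = 0.916), and Abhd5 was most like Sprtn (r = 0.844) and Bag4 (r = 0.838). Among the 9 genes, the inhibitors Hilpda and G0s2 were nearest to each other (r = 0.845), and so were the lipases Pnpla2 and Lipe (r = 0.872). Plin4 stood apart: its highest correlation with any of the other 8 genes was -0.122, with Plin2.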

How the data were processed

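RNA of whole soleus, quadriceps and heart was hybridised to 18 Affymetrix mouse arrays. The deposited values are log2 values that the authors made with RMA, per the submitters' processing notes; the version is not given in the sources used, nor which arrays were normalised together. They were used as deposited. The platform annotation gave 1 gene for 21789 of 35556 probe sets, several for 1621 and none for 12146, and 21698 symbols were updated through gene identifiers with a RefSeq table of GRCm38.p6. Each gene was represented by its brightest probe set, and a gene was left out where its mean was under the 40th percentile of all probe sets (6.194 in muscle, 6.255 in heart, 6.229 over all arrays), leaving 13318, 13431 and 13373 genes. No column was left out and no 2 columns were identical.

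Tests used limma 3.58.1 in R 4.3.3 with Benjamini-Hochberg adjustment over all genes. The 12 muscle arrays were fitted with 4 group means, the animal being a random block (correlation 0.1701). The 6 hearts had their own fit, and comparisons of heart with muscle and of the drug with the knockout used all 18 arrays with the same block (correlation 0.2015). Animals were read from label numbers shared by a soleus and a quadriceps array. Across genes, the 2 arrays of a mouse deviated from their groups with r between -0.0004825 and 0.3774, above 0.1 in 4 of 6 mice. With 3 arrays against 3, an exact permutation test cannot go below p = 0.1, so tests of single genes rest on limma's pooled variance. On simulated data, changes of 0.5 log2 units were recovered for 82% of genes in soleus, 81% in quadriceps and 64% in heart, and changes of 1 unit for 99%, 98% and 97%. There 100 genes of each size were changed, all among the brighter genes, with independent noise. More genes were changed than were called in soleus (24) or quadriceps (91), which loosens the adjusted threshold. These shares can therefore overstate recovery in the muscles. The number of arrays limits the precision. Marker sums are log2 of the summed linear values.

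The 9 genes and the gene lists were chosen with earlier results of these data known. The rule for named genes took all 9 genes, Egln1, up to 4 called genes with the largest change per list or else the gene with the largest change, and the 2 genes most correlated with each of the 9. Alternatives were quantile normalization repeated, no filter and a 60th percentile filter, the mean of probe sets, a trended robust prior, array weights, each array left out, other blocks and fits, and slow fibre and adipocyte markers as covariates. Each covariate was the mean of the log2 values of the measured markers, not the marker sum. List genes that had no value under 1 symbol were not analysed here.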

Additional observations from a re-analysis of the deposited data

How the results depend on the processing

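The count of the 9 genes that passed was 1 in soleus and fell to 0 with quantile normalization repeated, no filter, the 6 soleus arrays alone, the replicate block, the slow fibre covariate and the adipocyte covariate, and ran from 0 to 1 when single arrays were left out. It was 0 in quadriceps, 1 with a trended robust prior and with array weights (Plin3 both times), and 0 to 1 when single arrays were left out. In heart it was 2, fell to 1 with the 60th percentile filter, which removes Hilpda, was 3 with a trended robust prior (Plin4 added), with all 18 arrays in 1 fit and with the adipocyte covariate (Plin5 added both times), and ran from 2 to 3 when single arrays were left out. For the drug effect against the knockout effect it was 1, and became 0 with that filter, 2 with the trended robust prior, 2 with array weights and 1 to 2 when single arrays were left out. It stayed at 1 for the mean of both muscles and at 0 for the difference between the muscles, and it was 5 to 6 between WT muscles, 4 to 6 for heart against soleus and 7 to 8 for heart against quadriceps when single arrays were left out. The number of genes highest in vehicle heart among the control tissues was 6, and 5 to 7 under the alternatives. The share over all genes was not counted, so this number does not show that the 9 genes differ from others. Of 1375 recomputed differences of the 9 genes, 1299 kept their direction and their side of the threshold, 16 lost their call, 20 gained one and 40 turned sign.

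The turned differences were all small and not called. Abhd5 in soleus was 0.00 with quantile normalization repeated and 0.00 with the adipocyte covariate, 0.01 in heart with the adipocyte covariate, and with quantile normalization repeated it was 0.07 for heart against soleus and -0.01 for the drug effect against the knockout effect. In the mean of both muscles, Plin2 was -0.02 with the adipocyte covariate, and Hilpda was -0.00 with quantile normalization repeated, -0.01 with array weights and -0.02 with the slow fibre covariate. The soleus minus quadriceps difference of Lipe was 0.06 with array weights and 0.00 with the slow fibre covariate. When single arrays were left out, Hilpda ranged from -0.12 to 0.01 in soleus, -0.03 to 0.13 in quadriceps, -0.04 to 0.04 in their mean and -0.15 to 0.01 between WT muscles. Abhd5 ranged from -0.06 to 0.05 in soleus and -0.03 to 0.05 for the drug against the knockout, and Plin2 from -0.02 to 0.02 in the mean of both muscles. Pnpla2 ranged from -0.13 to 0.05 and Lipe from -0.10 to 0.10 for soleus minus quadriceps, and Pnpla2 from -0.02 to 0.14 for heart against soleus. The cause was not tested.

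Replicate numbers gave no steady sign of pairing: deviations of same-numbered arrays correlated at r from -0.12 to 0.04826 in soleus, -0.2854 to 0.07889 in quadriceps and -0.1298 to 0.176 in heart. With 3 pairs in each tissue, these values cannot decide whether the numbers pair the samples. With the replicate number as a block, G0s2 in soleus was 0.47 (limma, adjusted p = 0.335), and Hilpda and G0s2 in heart were 1.52 and 0.83 (adjusted p = 0.000203 and 0.0195). The block left 5 called genes of all tested in soleus in place of 24, 12 in quadriceps in place of 91 and 209 in heart in place of 238. Over all alternatives the called genes numbered 5 to 62 in soleus, 12 to 197 in quadriceps, 62 to 215 in their mean, 0 to 4 in their difference and 115 to 458 in heart. Dim signal limits Hilpda in muscle.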
